A study of Drosophila melanogaster with 2 samples.

Results

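Lola-RJ-GFP binding was described at 10 genes that encode insulator proteins, proteins of polytene interbands and core promoter factors. The genes were Cp190, mod(mdg4), su(Hw), CTCF, BEAF-32, Chro, pzg, Dref, M1BP and dwg. They were listed by symbol, with earlier results of these data known. All 10 were found among 13945 coding genes of the chromosome arms in Ensembl release 115. Of the 10, 8 carried a summit within 500 bp of a coding transcription start site (TSS) in the list thresholded by IDR (irreproducible discovery rate, a cut set by the agreement of peak ranks between replicates), against 22.9% of coding genes. These were all genes except mod(mdg4) and dwg.

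Chromatin immunoprecipitation followed by sequencing (ChIP-seq) had been carried out on whole Drosophila melanogaster embryos of both sexes, aged 0 to 12 h. The embryos belonged to 1 transgenic line, lola-J-GFP, which stably expresses isoform J of Lola, a BTB zinc-finger transcription factor, with a C-terminal GFP tag. The labels state that the antibody was against GFP, while their antibody field names lola. The labels list 2 biological replicates, numbered 1 and 3, which form the only group. What drives the fusion is a detail not given in the sources used here. No second genotype or mock precipitation entered the comparisons. Whole embryos mix all cell types, so a summit does not say in which cells the protein was bound. The IDR-thresholded list held 6154 peaks and the pooled list and each replicate's list 30000. Peaks were ranked by the authors' signal within each list, with rank 1 the strongest, and read depth was unknown. With 1 group of 2 replicates and genes listed with earlier results in view, counts are given as descriptions beside those of all coding genes, with no test.

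Insulators are DNA elements that limit contact between enhancers and promoters and mark borders between chromatin domains. In Drosophila, zinc-finger proteins such as Su(Hw), CTCF and Zw5 (the dwg product), together with BEAF-32, bind them on DNA and recruit the BTB proteins CP190 and Mod(mdg4). Interbands are the open, lightly stained regions of polytene chromosomes, often at promoters of broadly expressed genes, where Chromator (Chro) and Z4 (the pzg product) are found. Dref and M1BP bind the core promoter elements called DRE and Motif 1.

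The DNA under the members' summits is shown first, since its A/T content is set against rank further on. The 2 BEAF-32 summits (70.3% and 58.4% A or T) are not shown. Windows are on the plus strand of dm6, and capitals mark the longest run of A and T in each. The first set holds the summit base with 50 bp on each side for 4 summits in intergenic DNA, at Cp190 (3R:15275333-15275433), M1BP (3R:8731825-8731925), su(Hw) (3R:14308898-14308998) and the mod(mdg4) upstream region (3R:21378706-21378806). All 4 were at least 79.2% A or T. The weaker pzg summit, shown in the third set, was also intergenic and had 47.5% over a window of the same width.
Cp190: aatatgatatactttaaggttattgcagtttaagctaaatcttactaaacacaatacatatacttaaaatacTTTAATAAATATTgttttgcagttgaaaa
M1BP: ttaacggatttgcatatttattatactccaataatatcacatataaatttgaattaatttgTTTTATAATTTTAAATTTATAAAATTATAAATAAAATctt
su(Hw): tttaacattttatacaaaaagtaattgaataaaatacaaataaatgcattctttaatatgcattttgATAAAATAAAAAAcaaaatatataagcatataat
mod(mdg4), upstream: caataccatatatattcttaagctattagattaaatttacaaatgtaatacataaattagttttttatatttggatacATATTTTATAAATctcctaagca

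The second set holds shorter windows, cut to 29 bp because the summit lay in a 5' untranslated exon. They are those of Chro (3L:22878887-22878915), of the mod(mdg4) internal summit (3R:21365421-21365449), of the stronger pzg summit (3L:21285866-21285894) and of Dref (2L:9967188-9967216).
Chro: cctgtcgatagcTTTAAActaactgcagt
mod(mdg4), internal: tatagcAAAATATgcatattggtattggt
pzg: agcaatcgcaataagAAAAATAAATgctt
Dref: cgTAAAAAATgcgatttgttgagtattct

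The third set shows the GC-richest windows and the promoter without a summit. They are the CTCF summit (3L:7356484-7356580, trimmed to bases outside untranslated exons, 45.4% A or T), the weaker pzg summit (3L:21286032-21286098, trimmed likewise, 38.8%) and the stretch ending just before the dwg start site (X:2727597-2727697, 61.4%), where neither the IDR-thresholded nor the pooled list had a summit.
CTCF: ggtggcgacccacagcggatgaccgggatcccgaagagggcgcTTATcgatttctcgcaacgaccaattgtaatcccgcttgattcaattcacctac
pzg, weaker: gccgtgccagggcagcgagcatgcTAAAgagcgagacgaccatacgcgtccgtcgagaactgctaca
dwg: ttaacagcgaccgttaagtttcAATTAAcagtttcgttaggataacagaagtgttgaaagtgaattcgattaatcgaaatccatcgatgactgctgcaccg

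The strongest promoter summits were those of the interband genes Chro and pzg, of Cp190 and of M1BP. These 4 of 10 members had a promoter summit among the 500 strongest peaks, against 2.58% of coding genes. Dref, BEAF-32, su(Hw) and CTCF were bound in the middle and lower part of the IDR-thresholded list, at ranks 2394 to 5145. The best promoter ranks of the 8 bound members had a median of 1394.5, against 2583 over the 3192 bound coding genes.

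Chro, which encodes a chromodomain protein of interbands (FBgn0044324, 3L:22873702-22878984, minus strand), had the best rank. Its summit (22878901) had a signal of 3249 and ranked 10 in the pooled list, 34 in replicate 1 and 5 in replicate 3. The gene has 3 start sites: the summit lay 83 bp downstream of the outermost, 133 bp upstream of the next and 717 bp upstream of the innermost. It also lay 188 bp upstream of Ssl1, which encodes a subunit of the general transcription factor TFIIH and points the other way. The replicate summits lay within 2 bp of the pooled one.

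Its interband partner pzg, a zinc-finger gene (FBgn0259785, 3L:21286099-21290310, plus strand), had 2 summits in 1 interval of 612 bp, the widest among the members. The stronger (21285880, signal 1061, rank 395) lay 219 bp upstream of pzg and 82 bp inside CG12974, the divergent neighbour. It ranked 433 in replicate 1 and 362 in replicate 3. The weaker (21286082, signal 168.8, rank 5130) lay 17 bp upstream of pzg, and it ranked 3389 in replicate 1 but 8075 in replicate 3, outside that replicate's 6154 strongest. Both replicates thus placed the stronger summit on the side of CG12974.

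Cp190 encodes the BTB zinc-finger protein that DNA-bound insulator proteins share (FBgn0000283, 3R:15270432-15275241, minus strand). Its summit (15275383) had a signal of 2171 and ranked 71 in the pooled list, 85 in replicate 1 and 51 in replicate 3. It stood almost midway between 2 start sites, 142 bp upstream of Cp190 and 139 bp upstream of CG4338.

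M1BP encodes the zinc-finger protein that binds Motif 1 (FBgn0037621, 3R:8729790-8731698, minus strand). Its summit (8731875) had a signal of 1362 and ranked 239, with 177 bp to M1BP and 216 bp to the divergent CG8202. Replicate 1 resolved 2 peaks here, at rank 193 (132 bp upstream of M1BP) and rank 323 (340 bp upstream). Replicate 3 had 1 peak between them, at rank 276 and 227 bp upstream. The pooled list had no other summit in the M1BP span and the 2 kb on each side, fewer than any member except dwg.

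Dref encodes the DRE-binding factor (FBgn0015664, 2L:9964147-9967229, minus strand) and was bound beside the short gap it shares with the ribosomal protein gene RpL13. The summit (9967202, signal 331.8, rank 2394) lay 27 bp downstream of the Dref start site and 111 bp upstream of RpL13. It ranked 2117 in replicate 1 and 3009 in replicate 3. Replicate 1 also held a peak at rank 4800, 187 bp upstream of Dref, and the pooled list one at rank 9391, 175 bp upstream. Replicate 3 listed no second promoter peak.

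Of the DNA-binding insulator genes with a promoter summit, su(Hw) and CTCF were bound more weakly. BEAF-32 (rank 2556) was close to Dref (rank 2394), and ranked ahead of it in replicate 3 (2256 against 3009). For su(Hw), whose product binds the gypsy insulator (FBgn0003567, 3R:14304455-14308589, minus strand), the summit (14308948) had a signal of 225.7 and ranked 3712, 5105 in replicate 1 and 3271 in replicate 3. It lay 359 bp upstream of su(Hw) but 141 bp upstream of Polr2I, which encodes a subunit of RNA polymerase II, and its peak was the narrowest among the members at 212 bp. With a promoter window of 250 bp, su(Hw) had no summit.

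CTCF, the gene for a conserved zinc-finger insulator protein (FBgn0035769, 3L:7353578-7356713, minus strand), had the only IDR-thresholded summit among the 12 in member loci without a match within 100 bp in replicate 3. The pooled summit (7356534, signal 168.3, rank 5145) lay 179 bp downstream of the TSS, in an intron of CTCF and an exon of an antisense non-coding RNA. Replicate 1 had the same base at rank 6517, outside its 6154 strongest peaks, whereas replicate 3 had its summit at rank 4732, 36 bp downstream of the TSS.

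BEAF-32 (FBgn0015602, 2R:14770469-14772630, plus strand) encodes a boundary element factor that binds clusters of CGATA. It had a summit at each of 2 of its 3 start sites. The first (14770399, signal 314.8, rank 2556) lay 70 bp upstream of the outermost and ranked 3585 in replicate 1 and 2256 in replicate 3. The second (14771269, signal 152.5, rank 5668) lay 32 bp upstream of the innermost and ranked 5737 in replicate 1 and 6254 in replicate 3, just outside the 6154 strongest. Both lay in exons of an antisense non-coding RNA, asRNA:CR42254. No other coding gene had a start site within 500 bp.

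mod(mdg4) encodes a BTB protein of the gypsy insulator (FBgn0002781, 3R:21350846-21377401, minus strand) and was the longest member at 26.6 kb. It had 2 strong summits in the span and the 2 kb on each side, but neither was at its own start site. The upstream one (21378756, signal 1196) ranked 308, 242 in replicate 1 and 412 in replicate 3. It lay 1355 bp upstream of mod(mdg4) and 221 bp upstream of tin, a homeobox gene of heart and mesoderm on the other strand. At the mod(mdg4) TSS itself the best pooled summit had a signal of 102.6, 184 bp upstream, at rank 8261, below the lowest IDR-thresholded signal of 139.9. The best promoter peak of replicate 1 ranked 9087, 188 bp upstream. That of replicate 3 ranked 10120 but lay 17 bp downstream of the TSS, and its peak 232 bp upstream ranked 15903.

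The internal summit (21365435, signal 1005) ranked 439 in the pooled list, 500 in replicate 1 and 411 in replicate 3, within 3 bp of the same base. It lay 11966 bp into the gene, where start sites on opposite strands point away from each other. mod(mdg4) messages are joined by trans-splicing, and Ensembl lists pieces that supply their 3' ends as 23 pre-mod(mdg4) genes with 7 start positions in this span. Of these genes, 10 had a start site within 500 bp of the summit, 7 on the plus strand and 3 on the minus strand. The summit lay 174 bp upstream of the plus-strand site and 145 bp upstream of 1 minus-strand site. It lay 53 bp downstream of the other, which is 1 of 2 sites of pre-mod(mdg4)-E. The other 13 pre-mod(mdg4) genes had no IDR-thresholded summit within 500 bp. A further 12 summits of the pooled list fell in the locus, at ranks 8261 to 26973.

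**Figure D1:**
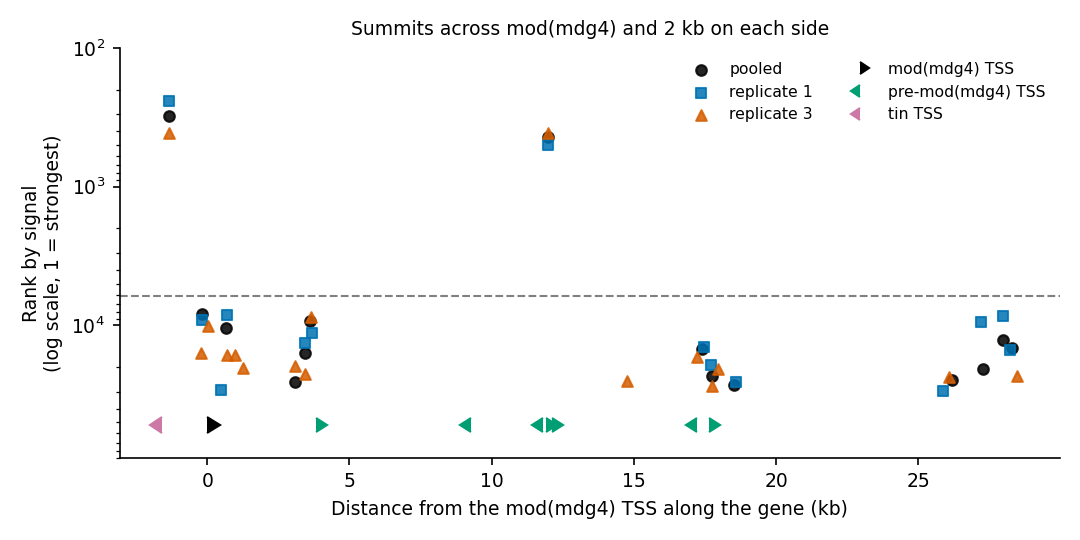
Rank by signal (log axis, 1 is the strongest) against distance from the mod(mdg4) TSS along the gene (kb) for each summit in the locus, by peak list, with arrow bases at start sites and arrows pointing along transcription. The strong summits stand upstream by tin (pooled rank 308) and at the internal start sites (rank 439), and all others lie below the dashed line at rank 6154.

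dwg, which encodes the scs-binding insulator protein Zw5 (FBgn0000520, X:2727698-2730042, plus strand), was the only member without a summit in the IDR-thresholded and pooled lists. In replicate 1 a peak of signal 25.86 lay 366 bp upstream, at rank 21958 of 30000. Replicate 3 had no peak within the gene and 2 kb on each side, and its nearest summit was 3.7 kb away. The nearest IDR-thresholded summit lay 4.64 kb downstream of the TSS, at rank 2136. Its promoter was not low in A and T, with 65.1% from 250 bp before to 50 bp after the TSS, against a median of 60.8% over all coding start sites.

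Shared promoters were common among the members. A coding TSS on the opposite strand lay within 1000 bp upstream of 6 of the 10, against 36.2% of coding genes. The pairs were Cp190 and CG4338 (gap 281 bp), su(Hw) and Polr2I (500 bp), Chro and Ssl1 (105 bp), pzg and CG12974 (137 bp), Dref and RpL13 (84 bp), and M1BP and CG8202 (393 bp). All 6 were bound, against 42.9% of the 5052 coding genes with such a neighbour. Of the other 4, CTCF and BEAF-32 were bound, against 11.5% of the 8893 coding genes without one. The strongest promoter summit also lay within 500 bp of another coding gene's TSS at 6 of the 8 bound members, against 63.2% of bound coding genes, a share near the background. To which gene of a pair such a summit belongs cannot be told apart here.

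The strongest promoter summit lay between both start sites in 3 of the 6 pairs (Cp190, su(Hw) and M1BP), against 75.1% of the 2165 bound coding genes with a divergent neighbour. At Chro and Dref it lay just inside the member's own first exon, and at pzg inside that of CG12974, while the weaker pzg summit lay between the start sites. These 3 pairs have the narrowest gaps, and those of the other 3 are wider. Of the 12 summits in member loci, 5 lay nearest to the start site of another coding gene: CG4338, Polr2I, CG12974, tin and pre-mod(mdg4)-E. No share over the loci of all coding genes is given for this count. The strongest promoter summit lay upstream of the nearest own TSS at 5 of the 8 bound members (62.5%), against 90.6% of bound coding genes.

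**Figure D2:**
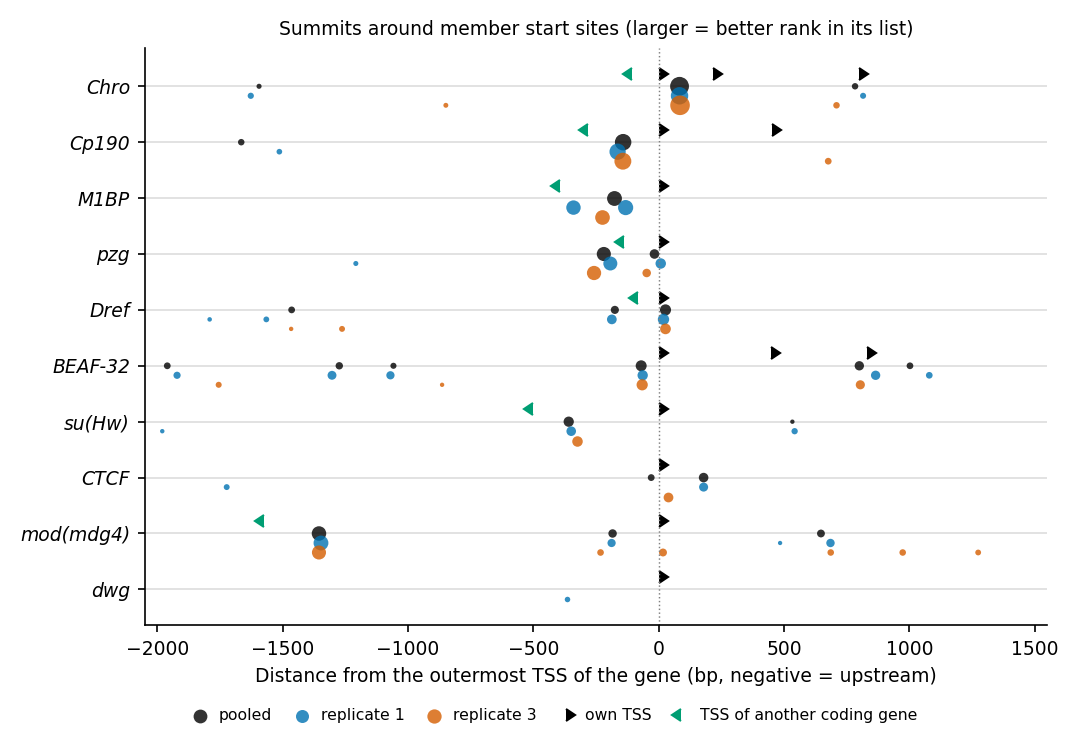
Distance of each summit from the outermost TSS of its gene (bp, negative is upstream) in the pooled list, replicate 1 and replicate 3, with larger points for better ranks and arrow bases at start sites. Green arrows mark start sites of other coding genes near a summit, among them tin in the mod(mdg4) row. The members with a close divergent neighbour have their largest points within 359 bp of their own TSS. The largest point of mod(mdg4) lies 1355 bp upstream, and dwg has 1 small point.

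Genes with more start sites were bound more often over the genome, and most members have 1. Among the 7 members with 1 coding TSS, 5 were bound, against 18.4% of the 10246 coding genes with 1. Cp190 has 2 start sites, a class in which 30.7% of coding genes were bound, and BEAF-32 and Chro have 3 each, a class with 42.4%. In the locus, taken as the gene with 2 kb added at either end, 9 of the 10 members had an IDR-thresholded summit, against 38.2% of coding genes. In the whole pooled list 9 had a promoter summit, against 49.9%.

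Replicate support was counted by gene and by summit, and only the summit shares were close to those of all peaks. A promoter summit among the 6154 strongest peaks of both replicates was present at 7 of the 10 members, against 19.0% of coding genes. CTCF fell out through replicate 1. Of the 12 summits in member loci, 9 (75.0%, exact 95% Clopper-Pearson interval 42.8% to 94.5%, counting error only) were matched within 100 bp by a summit ranked 6154 or better in both replicates, against 71.3% of all IDR-thresholded summits. The IDR cut was itself set by agreement between these replicates, so both shares are partly built in. The interval treats the summits as independent, although the 2 pzg summits share 1 peak. In the full lists 11 of 12 had one in both, against 92.7%. Matched summits were displaced by at most 65 bp in replicate 1 and 50 bp in replicate 3.

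**Figure D3:**
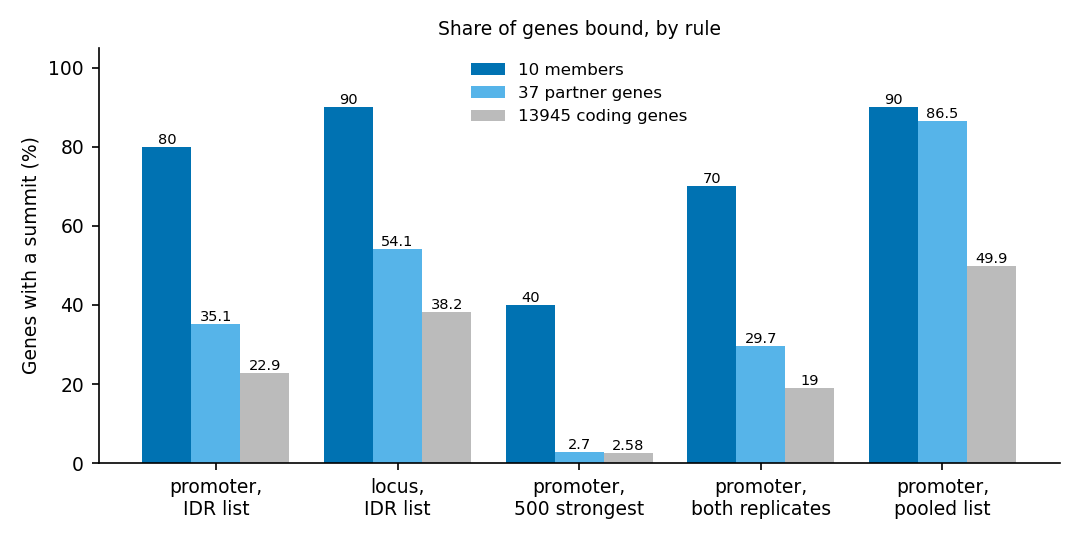
Percentage of genes with a summit under 5 rules, for the 10 members, for 37 partner genes of the same processes and for all coding genes. For promoter summits in the IDR-thresholded list the bars stand at 80%, 35.1% and 22.9%, and for promoter summits among the 500 strongest peaks at 40%, 2.7% and 2.58%.

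The A/T content was high at the strong summits and varied most among the weaker ones. The 12 windows, with 50 bp on each side of the summit, had a median of 70.8% A or T, against 71.3% over all IDR-thresholded summits (quartiles 65.3% and 75.2%). The 6 summits among the 500 strongest held 67.3% to 87.1% (median 77.2%), against a median of 74.3% for all 500. The other 6 had a median of 58.9%, against 71.3% over the remaining IDR-thresholded summits. Position was not matched. Of all 6154 IDR-thresholded summits, 3666 lay over 500 bp from the nearest coding TSS, against 0 of the members' 12. With ranks pooled, the 7 member summits within 100 bp of a coding TSS had a median of 67.3%. The 717 such IDR-thresholded summits had the same median. The other 5 member summits, up to 500 bp away, had 81.2%, against 72.3% over 1771. The 6 weaker summits were not compared within these classes. Among the 6 weaker summits, su(Hw) at 86.1% and the first BEAF-32 summit at 70.3% were high. Dref had 59.4%, the second BEAF-32 summit 58.4%, the weaker pzg summit 47.5% and CTCF 44.6%. These 4 low windows all lay within 179 bp of a start site of their gene. So did the windows of Chro (67.3%), Cp190 (79.2%), M1BP (87.1%) and the first BEAF-32 summit.

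The longest run of A and T in a window was 37 bp at M1BP, 13 bp at Cp190 and 4 bp at CTCF. The median was 10 bp over the 12 windows, against 11 bp over all IDR-thresholded summits. In 21 bp centred on the summit the members averaged 71.4% A or T, and 53.2% at 400 to 490 bp away. Over all IDR-thresholded summits these means were 70.6% and 55.3%.

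**Figure D4:**
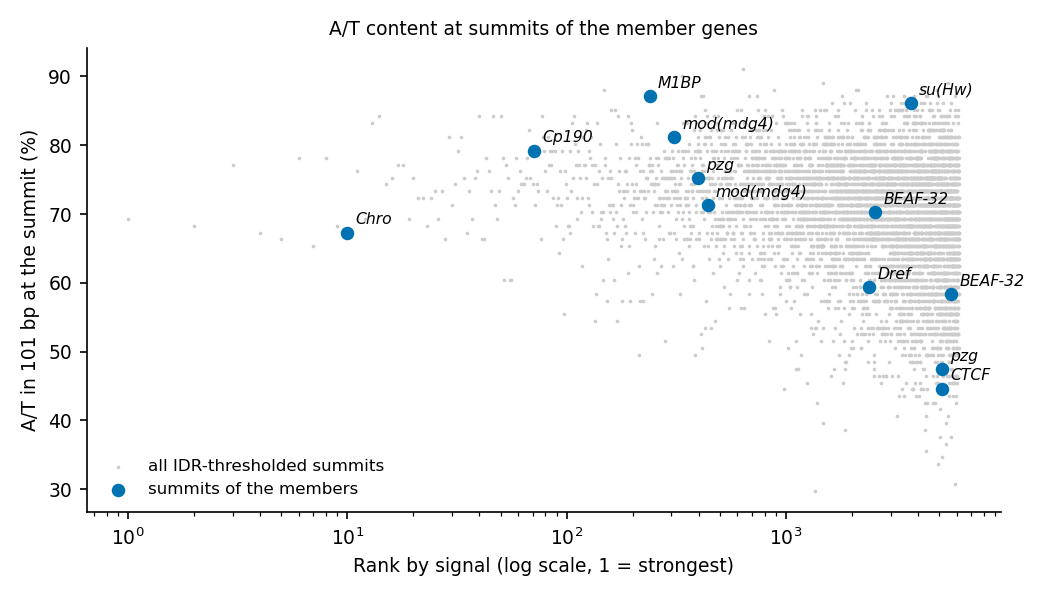
A/T content of the summit base with 50 bp on each side (%) against rank by signal (log axis, 1 is the strongest) for the 12 summits in member loci and for all IDR-thresholded summits in grey. The members' summits at ranks 10 to 439 hold 67.3% A or T or more, and the 4 lowest, down to 44.6% at CTCF, have ranks of 2394 or worse.

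Motifs known to be bound by Dref, BEAF-32, M1BP, CTCF, Su(Hw) and GAGA factor were searched on both strands from 250 bp before to 50 bp after each coding TSS. The DRE, TATCGATA, was present at Cp190, mod(mdg4), CTCF and BEAF-32, 4 of the 10 members, against 10.2% of coding genes. It began 4 bp and 21 bp upstream of the start sites of Cp190, 21 bp upstream of that of CTCF, 54 bp upstream of that of mod(mdg4) and 210 bp upstream of the outermost of BEAF-32. The Dref promoter itself held no match to it. CGATA, which is also contained in TATCGATA, was present at 8 members, against 53.1%. GGTCACAC, the core of Motif 1, was present at su(Hw) alone, against 8.71%, and not at M1BP.

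GAGAG, bound by GAGA factor, was found at 0 of the 10 members, against 36.4%, and AGGTGGCGC, a core of CTCF sites, at 0, against 0.394%. Of 2 overlapping parts of Su(Hw) sites, TGCATA was found at M1BP alone, against 19.2%, and GCATAC at none, against 11.4%. In the 12 summit windows TATCGATA, GGTCACAC, GAGAG, AGGTGGCGC and GCATAC had no match, against 1.2%, 0.699%, 7.3%, 0.276% and 3.43% of all IDR-thresholded summits. CGATA matched at 4 (CTCF, Chro, pzg and Dref), against 12.9%, and TGCATA at 3 (mod(mdg4), su(Hw) and M1BP), against 8.94%. These matches are letters in a window, not measured binding of the factors.

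The other genes of insulators, interbands and core promoters, 37 in all, were listed by symbol with earlier results of these data known. A promoter summit was present at 13 (35.1%), against 22.9% of coding genes. A summit in the locus was present at 20 (54.1%), against 38.2%. Cohesin genes gave the strongest, pds5 (rank 160, signal 1611, 167 bp upstream) and SA1 (rank 601, signal 867.5, 108 bp upstream), but these summits lay nearer to the start sites of Mppe and Gas41. row followed at rank 763, the RNA-binding protein gene shep at rank 884, the nucleoporin gene FBgn0039120 at rank 1012 and the condensin II gene Cap-H2 at rank 1286. Trl, which encodes GAGA factor, had its promoter summit at rank 2246, Su(var)3-7 at rank 3434, the histone kinase gene JIL-1 at rank 4291, HIPP1 at rank 4425, mip130 at rank 5042, woc at rank 5861 and insv at rank 6043. The summits of Cap-H2, Su(var)3-7, HIPP1 and mip130 also lay nearer to another gene's start site, those of MED7, Ravus, CG3634 and Edem1.

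Of the partner genes, pds5 alone had a promoter summit among the 500 strongest. Over whole loci the strongest summits were those of Caf1-55 (rank 3, at the mRpS10 promoter), Trl (rank 12, 1528 bp downstream of a Trl TSS), JIL-1 (rank 138, 7069 bp downstream of a start site), pds5 and FBgn0039120 (rank 190, nearest to mbc). In 14 of the 20 loci the strongest summit was nearest to another gene's start site, a count given without a share over the loci of all coding genes. No IDR-thresholded summit was found in the loci of ZIPIC, Ibf2, Elba1, Elba3, Clamp, Top2, vtd, SMC1, SMC3, Nipped-B, E(bx), Iswi, Nurf-38, Trf2, Hmr, Lhr and Mgtor.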

How the data were processed

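The 4 peak lists from Lola-RJ-GFP ChIP-seq on 2 biological replicates of embryos have dm6 coordinates. The submitters' file records name a list from each replicate's alignments, a list from both, each with a control alignment, and a list thresholded by IDR. The aligner and the peak caller are not given in the sources used here. Each peak carries a signal deposited by the authors, of unstated scale, used only to rank peaks within a list. The −log10 q deposited by the authors was shared by all 6154 IDR-thresholded peaks (4.33) and was not used to rank. The IDR-thresholded peaks equal the 6154 strongest pooled peaks. Fragments were 200 to 800 bp, per the labels' protocols.

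Summits were the deposited offset added to the start, counted from 1. Start sites were those of coding transcripts in Ensembl release 115. Sequences came from the RefSeq copy of the same assembly. Promoters were 500 bp on either side of a TSS, loci the gene span plus 2 kb, and summits matched within 100 bp. Lookups were checked on simulated summits. Python 3.11.15, numpy 2.4.6, pandas 2.3.3 and scipy 1.17.1 were used. The members and the partner list were chosen with earlier results of these data known. All members were named, with every coding gene sharing a promoter summit or nearest to a locus summit, every partner gene with a promoter summit and the 5 partner genes with the strongest locus summits; start sites nearest to partner summits were named after their values were seen. No test was made. Depth was unknown.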

Additional observations from a re-analysis of the deposited data

How the results depend on the processing

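Of 41 alternatives across 9 results, 33 kept a count within 1.5 times its value or moved a value by less than the replicate spread or, for the share of matched summits, stayed within its interval. The number of members with a promoter summit (8) ran from 6, with the IDR-thresholded list cut at its median rank, to 9, with the full pooled list, and was 8 in replicate 3 alone and 7 in replicate 1 alone. Over the gene span without flanks, 5 members had a summit in place of 9, since summits upstream then fell outside, and with 5 kb on each side all 10 did. For the partner genes the list cut at its median rank gave 7 and the full pooled list 32, in place of 13. Of these alternatives, only promoter summits in the full pooled list have a share of all coding genes beside them (49.9%). The other counts stand without a background. The median position of the members' promoter summits was -51 bp, and -132 bp to -104.5 bp with 1 replicate left out. The cause was not tested. The median rank of 1394.5 became 1275 to 1309 with 1 replicate left out. The A/T content was 63.1% with 150 bp on each side of the summit in place of 50 bp. No paired analysis was possible because all samples form 1 group. Without read counts, dwg can be called unlisted but not unbound.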
